A study of Mus musculus with 3 samples.

Results

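The 9 genes described here encode chains of laminin: Lama1, Lama2, Lama3, Lama4 and Lama5 (alpha chains), Lamb1 and Lamb2 (beta chains), and Lamc1 and Lamc3 (gamma chains). They are 9 of the 16977 genes in the deposited table, matched by symbol, and none of the 9 was absent. The group was selected on the normalised read counts of shControl against shPHF2, in which Lama1 is much lower. Because this same contrast chose them, their values are given as a description, with no p-value. The calls that the fit over all genes gives for them are counted below, and nothing is read from those calls. The table also holds Lamb3, which is not among the 9. In shControl, shPHF2 replicate 1 and shPHF2 replicate 2, Lamb3 had 53.8, 13.3 and 15.7 normalised reads and was not called by limma (adjusted p = 0.14).

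Laminins are large secreted glycoproteins of basement membranes, built as trimers of an alpha, a beta and a gamma chain. The short arms polymerise into a sheet, the gamma chain binds nidogen, and the globular end of the alpha chain binds integrins and dystroglycan on the cell. In the embryonic brain, laminin lies in the pial basement membrane, where the endfeet of radial glia attach, around vessels and in the ventricular zone.

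Total RNA, with ribosomal RNA removed, was sequenced from neural stem cells of C57BL/6J mouse embryos at E12.5, cultured with EGF at 20 ng/ml and FGF at 10 ng/ml. Every culture grew on dishes coated with poly-D-lysine and laminin, so laminin protein was supplied from outside in both groups. The cells carried a lentiviral short hairpin, either a control (shControl, 1 library) or one against the histone demethylase gene Phf2 (shPHF2, 2 libraries described as biological replicates). The sources used here do not say how many hairpin sequences were used or whether the replicates came from separate embryos. With 1 control library, the control has no replicate error, and any difference between that culture and the others cannot be told apart from the hairpin.

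Each value below is a normalised read count, in which a size factor corrects a gene's reads for library depth. Between 26302177 and 37171026 reads per library fell in genes. For the targeted gene Phf2, shControl had 2593 normalised reads and the shPHF2 replicates 985 and 714, so both shPHF2 libraries were below the control. Values are given in the order shControl, replicate 1, replicate 2. Of 11 neural stem cell markers, 4 were above the control in both shPHF2 libraries, 4 below it in both and 3 neither. Vim had 77235, 116785 and 132042 normalised reads, Nes 118161, 101381 and 98053, and Hes5 only 39.9, 20.0 and 14.5. Sox2 was the 1 marker of the list that was called, and it rose (5893, 10114 and 8819).

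Over all genes with a mean of at least 10 normalised reads, 14.3% passed the test between shPHF2 and shControl (limma-trend, p adjusted by Benjamini-Hochberg and under 0.05), 7.22% as higher and 7.11% as lower. Of the 9 laminin chains, 8 reached that mean. Of these 8, 3 were called higher (Lama2, Lama4 and Lamb2), 1 lower (Lama1) and 4 were not called (Lama3, Lama5, Lamb1 and Lamc1). Because the contrast was used in choosing the genes, nothing is read from these counts. Their median log2 fold change was 0.78, and that of all genes tested was -0.01. The control value lay outside the range of the shPHF2 values for 7 of the 8, as it did for 83.2% of all genes tested. In bulk RNA, fewer cells that make a chain and less of its RNA per cell cannot be told apart.

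**Figure D1:**
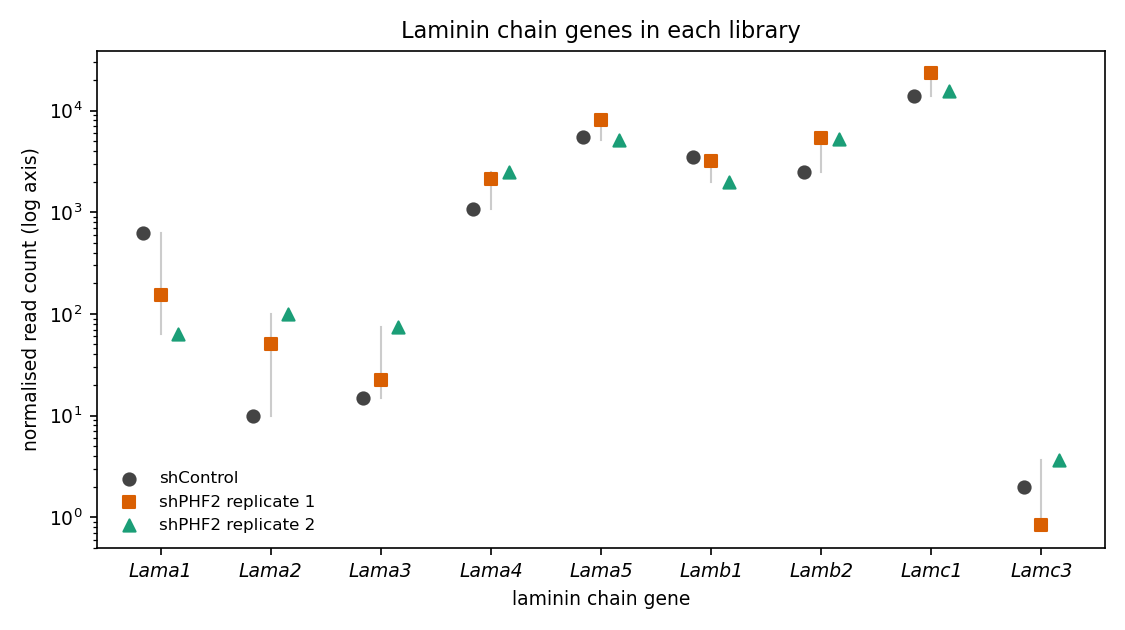
Normalised read count (log axis) of each laminin chain gene, with 1 point per library (circle, shControl; square, shPHF2 replicate 1; triangle, shPHF2 replicate 2) and a grey line over the range of the 3. Lama1 stands at 625 in shControl and at 153 and 63.9 in shPHF2, while Lama2, Lama3, Lama4 and Lamb2 lie higher in both shPHF2 libraries than in shControl.

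Among the alpha chains, Lama1 was the chain that was lower. It encodes the alpha chain of early embryonic basement membranes and lies on chromosome 17 from 67697259 to 67822647 on the plus strand (GENCODE M21, GRCm38). The control library had 625 normalised reads and the shPHF2 libraries 153 and 63.9. Both shPHF2 libraries were well below the control, at 24.5% and 10.2% of it, and replicate 1 was 2.40 times replicate 2. The shPHF2 mean was 109 ± 63.3 (SD, n = 2), 17.4% of the control, and the mean log2 difference was -2.64, with -2.02 in replicate 1 and -3.27 in replicate 2. These values rest on 627, 184 and 53 reads.

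Lama4, by contrast, was higher. Its product is the alpha chain best known from blood vessels and has a shortened arm that lacks the polymerising domain. The gene lies on chromosome 10 from 38965515 to 39110188. The control had 1069 normalised reads, replicate 1 had 2099 and replicate 2 had 2493. Both shPHF2 values were above the control, by more than they differed from each other. The shPHF2 mean was 2296 ± 279 (SD, n = 2), 2.15 times the control. The log2 differences were 0.97 and 1.22.

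Lama2 encodes the alpha chain of muscle and peripheral nerve, whose loss causes a congenital muscular dystrophy. It was close to undetected in the control, with 9.97 normalised reads, and had 50.02 in replicate 1 and 100.1 in replicate 2. The 3 libraries do not overlap, but replicate 2 was 2.00 times replicate 1. The control value is 10 reads. With the reads of both shPHF2 libraries pooled, the depth-corrected ratio to shControl was 7.07, with an exact 95% interval of 3.73 to 15.1. That interval covers counting error only and leaves out the difference between the replicates. It is not a test, because this contrast chose the gene. Lama3, the alpha chain of skin and other epithelia, was also low in every library, at 15.0, 22.5 and 74.8 normalised reads. Only replicate 2 stood clearly above the control, and the log2 differences were 0.56 and 2.25. Its read ratio, pooled in the same way, was 2.93, with a counting interval of 1.69 to 5.46 that again leaves out the difference between the replicates.

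Lama5, the widely expressed alpha chain of epithelial and vascular basement membranes, was the most abundant alpha chain per length of transcript in every library. Its minus-strand gene spans 180176373 to 180225859 of chromosome 2. The libraries had 5459, 8101 and 5120 normalised reads. The control lay inside the shPHF2 range, and the sign of the log2 difference changed between the replicates, with 0.57 and -0.09.

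The beta chains moved apart. Lamb2, the beta chain concentrated at synapses and in the kidney filter, lies on chromosome 9 from 108479736 to 108490530 on the plus strand. The control had 2475 normalised reads and the shPHF2 libraries 5364 and 5258. The shPHF2 replicates were nearly equal, with a mean of 5311 ± 75.1 (SD, n = 2), 2.15 times the control. Of the 8 chains compared, Lamb2 had the smallest spread between replicates, with log2 differences of 1.12 and 1.09. Lamb1, the beta chain of most embryonic laminins, lies on chromosome 12 from 31265234 to 31329644. It had 3514, 3206 and 1972 normalised reads, so replicate 1 was close to the control and replicate 2 at 56.1% of it. The log2 differences were -0.13 and -0.83.

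The ratio between the beta chain genes needs no gene length to be compared across libraries. There were 0.704 normalised reads of Lamb2 for each of Lamb1 in shControl, 1.67 in replicate 1 and 2.67 in replicate 2. The ratio was therefore 2.37 and 3.78 times that of the control. The same ratio for Lama4 against Lama5 was 0.196, 0.259 and 0.487, and that of Lama1 against Lama5 was 0.114, 0.0189 and 0.0125. In each of these 3 ratios both shPHF2 libraries lay on the same side of the control. The genes were chosen on this contrast, so nothing is read from that. For single genes, the control lay outside the shPHF2 range in 83.2% of all genes tested.

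Among the gamma chains, Lamc1 accounted for nearly all reads. It encodes the gamma chain shared by most laminins, with the binding site for nidogen, and spans 153218922 to 153332786 of chromosome 1, minus strand. The libraries had 13763, 23212 and 15652 normalised reads. Both shPHF2 values were above the control, but the step between the replicates was larger than that between replicate 2 and the control, and the log2 differences were 0.75 and 0.19. Lamc3, a gamma chain that has been linked to cortical malformation in people, had 2 reads in shControl, 1 in replicate 1 and 3 in replicate 2. That is at or under a floor of 3 reads in each library, so no fold change is given.

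**Figure D2:**
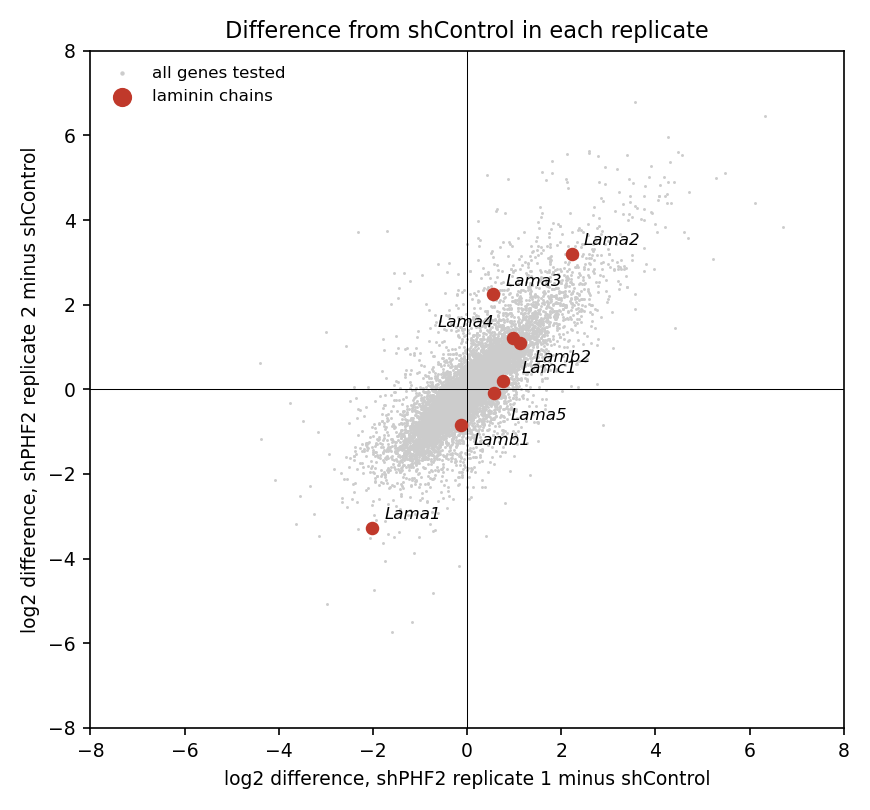
Log2 difference from shControl of log2(normalised reads + 1) in shPHF2 replicate 1 (horizontal) and replicate 2 (vertical), for all genes tested (grey) and the 8 laminin chains with a mean of at least 10 (red). Lama1 lies at -2.02 and -3.27 and Lama2 at 2.22 and 3.20, while Lama5 lies at 0.57 and -0.09. Both axes share the shControl library, so the slope of the cloud is not evidence of agreement.

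Levels of different chains were compared per kilobase of exonic length, counting each base covered by an exon of any GENCODE transcript once. In shControl, Lamc1 stood highest at 1664 normalised reads per kilobase, followed by Lama5 at 479, Lamb2 at 407, Lamb1 at 354, Lama4 at 88.5 and Lama1 at 64.6. Lama3, Lama2 and Lamc3 followed at 1.39, 0.610 and 0.327. In shPHF2, the mean level per kilobase was 2349 ± 646 for Lamc1, 873 ± 12.3 for Lamb2, 580.5 ± 185 for Lama5, 261 ± 88.0 for Lamb1 and 190.3 ± 23.1 for Lama4 (SD, n = 2). Lama1, Lama2 and Lama3 stood at 11.2 ± 6.54, 4.59 ± 2.17 and 4.53 ± 3.44 per kilobase (SD, n = 2). The ranges of Lamb1 and Lama4 overlapped over the shPHF2 libraries, as did those of Lama1 and Lama3 and those of Lama2 and Lama3. Lamc1 was highest and Lamc3 lowest in every library.

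Lama1 thus made up 10.2% of the summed alpha chain level per exonic kilobase in shControl, 1.75% in replicate 1 and 0.977% in replicate 2. Lama4 made up 14.0%, 19.2% and 30.6%, and Lama5 75.6%, 78.5% and 66.5%. The share of Lamb2 in the beta chain level of Lamb1 and Lamb2 was 53.5%, 73.2% and 81.3%. With coding length in place of exonic length, these shares of Lamb2 were 41.8%, 63.0% and 73.1%, so which beta chain led in shControl depends on the length used. On that scale Lama4 and Lama5 were level in replicate 2, at 48.6% and 48.7%. The direction of the difference between shControl and each shPHF2 library is the same on both scales for Lama1, Lama4 and Lamb2, and differs for Lama5 in replicate 1, where its share was 64.8% in shControl and 63.9% in replicate 1 with coding length.

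**Figure D3:**
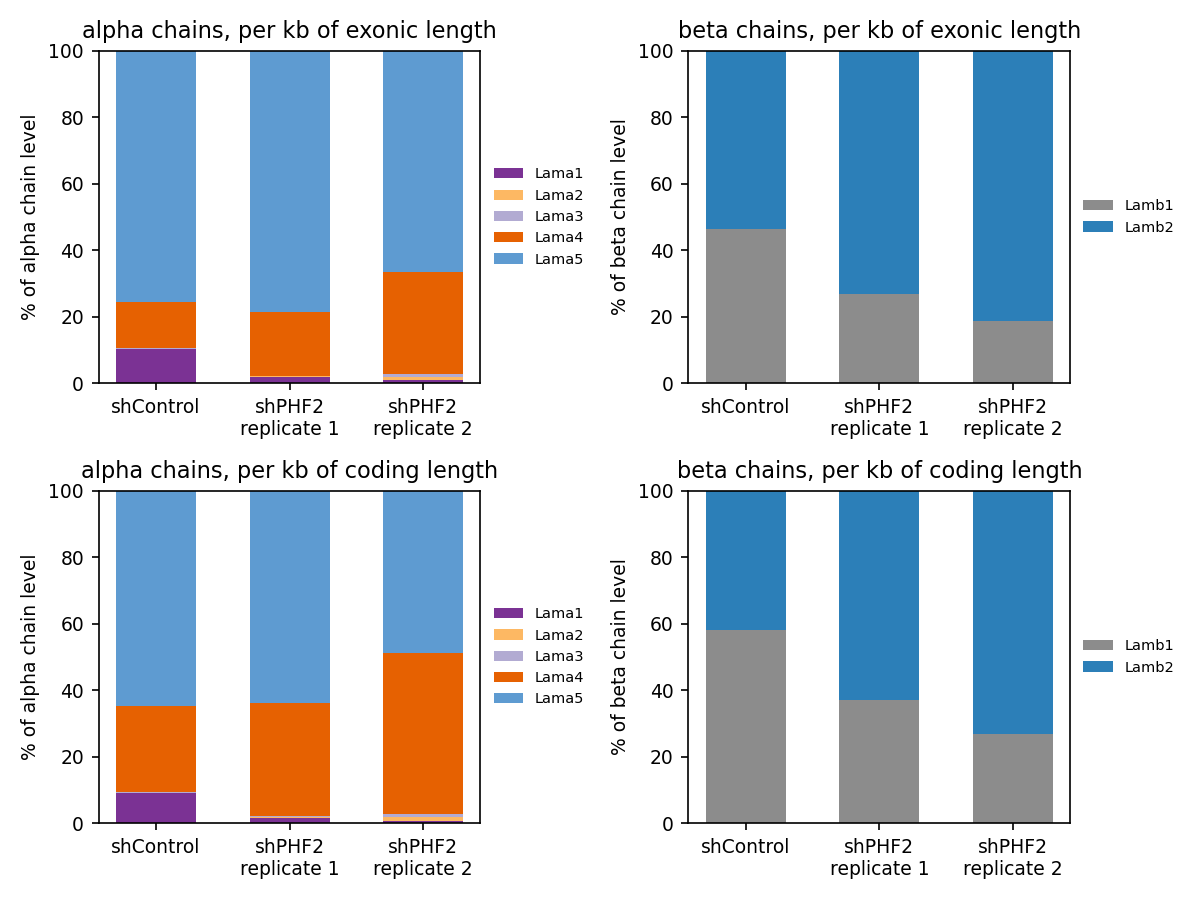
Share of each chain gene in the summed level of its chain class (percent), for alpha chains (left) and for Lamb1 and Lamb2 (right), per kilobase of exonic length (top) and of coding length (bottom), with 1 bar per library. Per exonic kilobase the Lama1 share is 10.2% in shControl and 1.75% and 0.977% in shPHF2, and the Lamb2 share is 53.5%, 73.2% and 81.3%.

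The bases before the transcription start are shown for some of the members that have an entry in the RefSeq promoter table (GRCm38.p6). Of the 9 members, 4 were kept and are printed. This is not a count of the members that have an entry. Bases that any GENCODE exon covers are left out, which shortens the stretches of Lamb1 and Lamb2 and leaves those of Lama5 and Lama2 at 250 bases, and capitals mark the GC box, GGGCGG on either strand.
Lama5, chr2:180225860-180226109, minus strand: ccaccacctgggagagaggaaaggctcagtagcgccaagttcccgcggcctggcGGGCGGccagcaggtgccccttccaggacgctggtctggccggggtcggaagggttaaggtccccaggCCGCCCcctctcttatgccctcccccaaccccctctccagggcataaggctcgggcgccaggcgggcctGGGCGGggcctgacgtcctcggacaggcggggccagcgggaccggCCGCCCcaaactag
Lamb1, chr12:31265043-31265233, plus strand: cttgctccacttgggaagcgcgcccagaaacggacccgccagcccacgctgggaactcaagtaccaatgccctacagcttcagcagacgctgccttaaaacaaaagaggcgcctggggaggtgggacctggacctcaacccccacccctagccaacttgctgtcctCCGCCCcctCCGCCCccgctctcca
Lamb2, chr9:108479612-108479735, plus strand: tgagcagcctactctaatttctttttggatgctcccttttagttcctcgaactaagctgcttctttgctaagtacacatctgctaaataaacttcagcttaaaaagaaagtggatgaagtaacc
Lama2, chr10:27616943-27617192, minus strand: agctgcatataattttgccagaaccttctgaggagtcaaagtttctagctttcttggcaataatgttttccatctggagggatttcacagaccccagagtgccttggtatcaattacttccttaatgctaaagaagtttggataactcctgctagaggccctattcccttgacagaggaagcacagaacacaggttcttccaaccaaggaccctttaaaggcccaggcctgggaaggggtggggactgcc

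The 4 windows differ in base composition, and they do not include Lama1 or Lama4. A link between base composition and the change of these chains was not tested. Over the 250 bases before the RefSeq start, Lama5 had 72.4% G and C with 19 CG dinucleotides and Lamb1 62.0% with 14. Lamb2 had 43.6% with 3, and Lama2 47.2% with 0. The median over 32851 promoter windows was 6 CG dinucleotides, and 7.87% of windows had none. The GC box occurred 4 times in the Lama5 window and 2 times in that of Lamb1, and 0 times in those of Lamb2 and Lama2; 32.7% of all windows of that length hold it. The Lama2 window lies inside the longer GENCODE model of that gene, outside its exons. The start of the Lamb2 transcript differs between the annotations, by 126 bases.

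Of the genes named here beside the chains on the chromosome, Ptprm, Arhgap28, Dld and Sh3yl1 were above the control in both shPHF2 libraries. Shcbp1l was below it in both, and only Ptprm was called. The nearest tested gene below Lama1 on chromosome 17 is Ptprm, a receptor tyrosine phosphatase gene 343 kilobases away. It had 1138, 3088 and 2016 normalised reads and rose by 1.13 on the log2 scale (SE 0.26; limma, adjusted p = 0.028), where Lama1 was lower. Arhgap28, 20.1 kilobases on the other side, had 11.0, 16.7 and 91.6 and was not called. Dld, a subunit gene of the pyruvate dehydrogenase complex, lies 1.63 kilobases from the end of Lamb1. It had 3088, 3706 and 4134 normalised reads and was not called. Sh3yl1, on the other side of Lamb1, had 18.9, 60.9 and 53.0 and was not called. Shcbp1l, the nearest tested gene above Lamc1 on chromosome 1, had 56.8, 44.2 and 38.6 and was not called.

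The genes whose pattern lay nearest to that of Lama1 were sought among the 11482 other genes with a mean of at least 100, by the distance between their log2 differences from shControl in the 2 shPHF2 libraries. Over these 3 libraries the nearest were the cyclic GMP phosphodiesterase gene Pde9a (1864, 475 and 235.1 normalised reads; distance 0.29), the connexin gene Gjc3 (911, 283 and 84.4; distance 0.37) and Olfml3 (1455, 285 and 230.3; distance 0.70). Pitpnm3 (269, 108 and 31.3) and the protein kinase C theta gene Prkcq (671, 225.1 and 109) followed at 0.73 and 0.79. Their likeness is by construction, and all 5 share the one control library with Lama1.

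Genes that work with laminins were taken from 7 lists of 116 genes in all, of which 106 could be tested. Of these, 15 rose and 1 fell (limma, adjusted p under 0.05), 15.1% of those tested against 14.3% of all genes. In the upward direction the share was 14.2% against 7.22%, and in the downward direction 0.943% against 7.11%. The median log2 fold change was 0.30 over the 106, with 0.33 in replicate 1 and 0.28 in replicate 2, and -0.01 over all genes. With quantile normalization, with no filter on low values and without the trend, limma called none of the listed genes. The lists were chosen with earlier results of these data known. These shares are therefore a description, and no test of the lists as sets was made.

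Of 24 basement membrane partners tested, 4 rose, 1 fell and 19 were not called, with a median log2 fold change of 0.19. That median was 0.46 in replicate 1 and -0.25 in replicate 2, so its sign differed between the replicates. edgeR and DESeq2 each called 2 lower, Smoc1 and the fibulin gene Fbln1, which had 1650, 1057 and 687 normalised reads and was not called by limma (adjusted p = 0.057). Npnt, which encodes the integrin ligand nephronectin, rose from 453 normalised reads in shControl to 1336 and 1131 in shPHF2 (log2 fold change 1.44, SE 0.22; limma, adjusted p = 0.0092). Frem1, a matrix protein of epithelial basement membranes, rose from 284 to 938 and 652. Smoc2, a calcium-binding matrix protein, rose from 29.9 to 207 and 112, whereas its paralogue Smoc1 fell from 3172 to 1499 and 1513 (log2 fold change -1.07, SE 0.18; limma, adjusted p = 0.012). Nid1 encodes nidogen, the protein that links the laminin gamma chain to collagen IV. It rose from 104 to 247 and 708 (log2 fold change 2.00, SE 0.56, limma adjusted p = 0.049). Beside the settings that called no gene, the limma call was lost with a pseudocount of 5 (adjusted p = 0.053). It was also lost with scaling to gene-assigned reads (limma, adjusted p = 0.061). The most abundant members, the collagen-binding gene Sparc and the fibulin gene Fbln2, were not called. Sparc had 26145, 33596 and 30660 normalised reads and Fbln2 33735, 30710 and 28408.

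Of 15 laminin receptor genes tested, 3 rose, 0 fell and 12 were not called. With an unadjusted p under 0.05 by limma, 1 was lower, and edgeR and DESeq2 called 0 lower. Cd151, a tetraspanin that binds laminin-binding integrins, rose from 2530 normalised reads to 5356 and 6749 (log2 fold change 1.25, SE 0.20; limma, adjusted p = 0.010). Bcam, an immunoglobulin-family receptor for the Lama5 chain, rose from 94.7 to 289 and 588 (log2 fold change 2.11, SE 0.44; limma, adjusted p = 0.021). Itga2, an integrin subunit that binds collagen and laminin, rose from 69.8 to 278 and 291 (log2 fold change 2.01, SE 0.35; limma, adjusted p = 0.012). The common beta subunit gene Itgb1 had 30857, 31451 and 34066 normalised reads, and the dystroglycan gene Dag1 had 20428, 25250 and 25541, and neither was called. The alpha subunit gene Itga6, named after its values were seen because it forms the main laminin receptors of neural progenitors with Itgb1, had 5642, 6688 and 5172, with the control inside the shPHF2 range.

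Of 17 genes that build the laminin-binding sugar of dystroglycan, 0 were called by limma, edgeR or DESeq2, and 4 had an unadjusted p under 0.05 by limma. The most abundant, Pomt2 and Large, had log2 fold changes of -0.64 and 0.40 (limma, adjusted p = 0.079 and 0.16). Of 10 dystrophin complex genes tested, 2 rose. Of these, the sarcoglycan gene Sgcb had 1214, 2221 and 2088 normalised reads. Dmd and Utrn, which encode dystrophin and utrophin, had log2 fold changes of -0.04 and 0.06 and were not called.

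Of 19 integrin adhesion genes tested, the parvin gene Parvb and the adaptor gene Bcar1 rose and 0 fell. By limma 1 was lower at an unadjusted p under 0.05, and edgeR and DESeq2 called 0 lower. Parvb had 183, 931 and 469 normalised reads and Bcar1 had 1297, 2233 and 2452. The focal adhesion kinase gene Ptk2 and the linker gene Lims1, the most abundant members, were not called, at log2 fold changes of 0.05 and -0.37.

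Among 16 matrix proteases and their inhibitors tested, 4 rose and 0 fell, and the median log2 fold change was 0.55. At an unadjusted p under 0.05 limma also had 0 lower, as had edgeR and DESeq2 after adjustment. The metalloproteinase inhibitor gene Timp2 rose from 1550 normalised reads to 3715 and 3833 (log2 fold change 1.28, SE 0.17; limma, adjusted p = 0.0068), and the lysosomal protease gene Ctsl from 2126 to 3941 and 4514. Mmp14, a membrane-bound metalloproteinase, rose from 146 to 360.2 and 1090. Beside the settings that called no gene, its call was lost with scaling to gene-assigned reads (limma, adjusted p = 0.056). It was also lost in the authors' deposited table (adjusted p = 0.22). The proprotein convertase gene Furin rose from 466 to 905 and 793, which DESeq2 also did not call (adjusted p = 0.053). The most abundant were the serpin gene Serpine2 (48054, 69081 and 95277) and Mmp15 (19595, 31951 and 36203), neither called by limma (adjusted p = 0.15 and 0.057). DESeq2 called both. Of 5 netrin genes, whose products share the laminin N-terminal domain, 0 were called by limma, edgeR or DESeq2, and 1 had an unadjusted p under 0.05 by limma. Ntn1 and Ntn4 had log2 fold changes of -0.18 and 0.06.

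**Figure D4:**
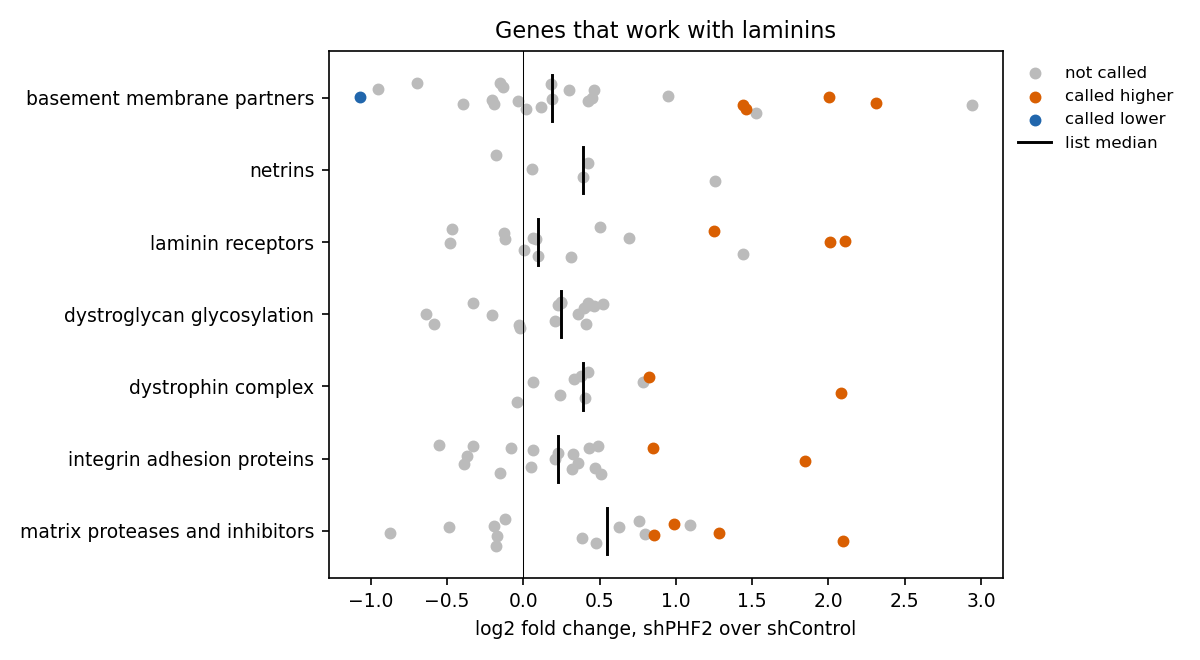
Log2 fold change of shPHF2 over shControl for each tested gene of the 7 lists (grey, not called; orange, called higher; blue, called lower; black bar, list median). Points are spread vertically only to separate them. Smoc1 is the 1 gene called lower, and list medians lie between 0.09 and 0.55.

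Laminins are also made by vessels, meninges and glia, so markers of those cells were summed in each library. The 8 endothelial markers summed to 329 normalised reads in shControl and 360.2 and 209 in shPHF2; 3 were above the control in both shPHF2 libraries, 4 below it in both, and 0 were called by limma. Most of the sum came from the receptor genes Kdr (200.4, 156 and 77.2) and Tek (78.7, 165.1 and 95.2). Pecam1, Cdh5, Tie1 and Cldn5 lay between 0 and 10.8. Flt1 had 2.99, 12.51 and 30.1, whereas Esam had 35.9, 10.0 and 1.21.

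The 8 pericyte and smooth muscle markers summed to 227, 324 and 241, with 4 above the control in both shPHF2 libraries, 2 below it in both and 0 called by limma. The contractile genes Acta2 (115, 113 and 65.1) and Tagln (73.8, 142 and 97.7) made up most of it. Pdgfrb lay between 0.834 and 2.41, and Rgs5 had 2.99, 24.2 and 38.6. The 8 fibroblast markers in the table summed to 2186, 5628 and 5029, nearly all from the transcription factor gene Foxc1 (1994, 5516 and 4919, called higher). The other 7 summed to 192, 113 and 110, mostly from Ptgds (183, 94.2 and 77.2), which was lower in both shPHF2 libraries. Col1a1, Col1a2, Col3a1 and Dcn lay between 0 and 7.23, and Slc6a13 had 1.99, 2.50 and 18.1. Of the 8 fibroblast markers, 4 were above the control in both shPHF2 libraries, 2 below it in both and 2 neither. The part of these cells in the laminin values was not tested.

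Of the other markers, the 4 microglial genes in the table summed to 111, 238 and 228, nearly all from P2ry12 (99.7, 204 and 213), while Aif1 and Tmem119 lay between 0 and 4.17. The 5 choroid plexus markers summed to 9.97, 20.8 and 37.4. The 8 neuronal markers in the table summed to 64390, 42320 and 41912, nearly all from Map2 (60020, 37935 and 38518). Of these 8, 1 was above the control in both shPHF2 libraries (Tubb3, with 104, 198 and 346), 4 were below it in both and 3 neither, and Elavl4 was the 1 called, as lower. The 6 astrocyte markers summed to 9103, 7418 and 6723, mostly from Aldoc (4772, 3998 and 1522) and Gja1 (3853, 2158 and 3284). The other 4, Gfap, Aqp4, Aldh1l1 and S100b, were above the control in both shPHF2 libraries, and S100b (331, 1094 and 850.0) was the 1 called. Gfap (1.99, 10.8 and 20.5) and Aqp4 (0, 6.67 and 37.4) were close to undetected in shControl. Aldh1l1 (146, 152 and 1009) was close to the control in replicate 1. Of the 8 oligodendrocyte lineage markers, which summed to 69620, 64834 and 84165, 2 were above the control in both shPHF2 libraries and 6 below it in both. The part of neuronal and glial cells in the laminin values was not tested. The markers printed singly were picked after their values were seen.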

How the data were processed

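RNA-seq of 3 libraries was analysed, 1 of shControl and 2 of shPHF2, with 32898139, 37171026 and 26302177 reads in genes. The submitters' processing notes name HISAT2, HTSeq and DESeq2 and the build mm10. The kit was stranded, per the labels' protocols, but no source used here gives the strand setting of the counting, so overlapping and antisense genes are uncertain. None of the GENCODE genes that overlap the 9 laminin chains is in the table. The deposited library values are a signal, taken to be read counts divided by DESeq2 size factors. The factors (1.00, 1.20 and 0.829) were recovered from the smallest value above 0 in each library and are not given in the file headers. All values (100% in each library) were whole multiples of the smallest, within 0.001, so whole reads could be recovered. Per the file headers, the authors' own comparison is deposited beside them as a log2 fold change with its error, a Wald statistic (a score), and raw and adjusted p-values. Adjusted p-values are empty for 4280 genes. The 4 rows that name no gene were left out of all fits and totals; reads on no feature made up 42.7%, 44.0% and 38.7% of reads in the table. No library column was left unused (0 columns).

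For the 14148 genes that reached a mean of 10, log2(value + 1) was tested with limma 3.58.1 (lmFit, eBayes with trend; R 4.3.3), two-sided, at a p adjusted by Benjamini-Hochberg of under 0.05. On this scale the fold of a low gene is understated. Only the shPHF2 libraries give a residual degree of freedom (1, beside 6.94 from the prior), and their spread is taken to hold for the single control too. The p-values therefore rest on the spread between the 2 shPHF2 libraries and on the prior, and not on any spread between control cultures.

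The laminin chains and the lists were chosen with earlier results of these data known. Named genes were the 9 chains, the 4 called genes of largest change and the 2 of highest mean in each list, the 5 genes nearest to Lama1 in pattern, and the tested neighbours of Lama1, Lamb1 and Lamc1; some of these genes are not reported here. Smoc1, Itga6 and single cell type markers were named after their values were seen. Of the 116 listed genes, Ntn5, Pomk, Sgcd and Mmp9 were not matched in the table used here, and older symbols were used where the table has them. Alternatives were TMM, gene-assigned and quantile scaling, pseudocounts of 0.5 and 5, other minimum means, no trend, edgeR 4.0.16 and DESeq2 1.42.0 on recovered reads, the deposited calls, each shPHF2 replicate left out, and coding length.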

Additional observations from a re-analysis of the deposited data

How the results depend on the processing

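With quantile normalization, with no filter on low values and without the trend, limma called 0 genes, 0 laminin-related genes and 0 laminin chains, while 3700, 3893 and 3300 genes had an unadjusted p under 0.05, of which 31, 26 and 16 were laminin-related. The cause was not tested. edgeR called 2147 genes and DESeq2 1969, with 18 and 19 laminin-related genes among them. Over the other settings with a test, 1685 to 2321 genes and 15 to 19 laminin-related genes were called. Of the laminin chains, 3 were called at a minimum mean of 50, where Lama2 was not, and 4 under each other setting apart from the 3 that called 0; the contrast chose these genes, and nothing is read from their calls. Over the scalings, tools, pseudocounts and filters, the log2 fold change was -2.76 to -2.51 for Lama1, 2.34 to 2.92 for Lama2, 1.09 to 1.16 for Lama4 and 1.09 to 1.19 for Lamb2. Leaving out 1 shPHF2 replicate leaves 1 library against 1 and no test; the log2 difference then ranged from -3.27 to -2.02 for Lama1, 2.22 to 3.20 for Lama2, 0.56 to 2.25 for Lama3, -0.83 to -0.13 for Lamb1 and 0.19 to 0.75 for Lamc1, and Lama5 changed sign (-0.09 without replicate 1). No paired analysis was possible because there is only 1 shControl library for the 2 shPHF2 libraries. Depth limits Lama2, Lama3 and Lamc3, which had 10, 15 and 2 reads in shControl.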

Other observations

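Some basement membrane genes differed between the shPHF2 replicates, in both directions. Of the 24 basement membrane partners tested, 17 (70.8%) were higher in replicate 1 than in replicate 2, as were 5 of the 8 laminin chains (62.5%) and 49.0% of all genes tested. No test of these shares was made. The following genes were picked after their values were seen. The hemicentin gene Hmcn1 had 4289 normalised reads in shControl, 10705 in replicate 1 and 3277 in replicate 2, a log2 difference between replicates of 1.71; replicate 1 exceeded replicate 2 by as much or more in 0.982% of genes tested. The perlecan gene Hspg2 had 4751, 8105 and 2842. In the other direction, the nidogen gene Nid1 had 104, 247 and 708, and the collagen gene Col18a1 had 109, 176 and 559. Among the laminin chains, Lamc1, Lama5 and Lamb1 were higher in replicate 1 than in replicate 2 by 0.57, 0.66 and 0.70 on the log2 scale, whereas Lama2, Lama3 and Lama4 were higher in replicate 2.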
